A study of Sus scrofa with 12 samples.

Results

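The microRNAs (miRNAs) of the DLK1-DIO3 imprinted cluster were examined in pig ovaries of small and large litter size. Members were taken by name: each mature miRNA of the deposited table whose number is 1 of 22 numbers known from this cluster. This gave 18 mature miRNAs of 457 in the table, from 14 hairpins and 12 of the 22 numbers, and the remaining 10 numbers had no row. A filter on low values, at least 1 RPM (reads scaled to an equal library total) in at least 3 of 6 libraries, was passed by 14 of the 18 members and by 353 of the 457 miRNAs. The left ovaries came from sows of a commercial piggery at day 4 after delivery 4. The small litter size (SLS) group had 8.48 ± 0.53 piglets per litter and the large litter size (LLS) group 16.19 ± 0.43 (mean ± SEM), and no treatment or genetic change was applied. Each group had 3 ovaries, ZD2, ZD3 and ZD12 in SLS and ZD5, ZD7 and ZD8 in LLS, and each ovary gave 1 small RNA library and 1 library of total RNA depleted of ribosomal RNA. The question asked of the members was whether they move together over the 6 ovaries and whether they differ between the groups.

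The cluster is a stretch of imprinted genes, in which protein genes such as DLK1, RTL1 and DIO3 are expressed from the paternal chromosome and long noncoding RNAs such as MEG3 from the maternal one. Its many miRNAs are cut from noncoding transcripts of the maternal chromosome, and in mammals they are known for high levels in placenta, brain and embryonic tissue. A mature miRNA pairs with target mRNAs mainly through its seed, bases 2 to 8 from its 5′ end, and lowers their translation and stability.

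The members differed in their seeds: no seed was shared between any of the 18 members, or by a member with any other miRNA of the table. The sequences below are those of the deposited table, written with T in place of U, 5′ to 3′ and with the seed in capitals. miR-127 is shown as the most abundant member, and miR-382, miR-323, miR-411 and miR-758 as the members whose levels followed it most closely.
miR-127: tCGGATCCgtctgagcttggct
miR-382: aAGTTGTTcgtggtggattcg
miR-323: gCACATTAcacggtcgacctct
miR-411: aTGTAACAcggtccactaac
miR-758: tTTGTGACctggtccactaac

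miR-411 and miR-758 have different seeds, and the last 11 bases of both are the same (ggtccactaac). miR-376a-3p, miR-376c and miR-376b are shown because the first of them had a negative correlation with 8 of the 13 other members and the other two are near-identical.
miR-376a-3p: aTCATAGAggaaaatccacgt
miR-376c: gTGGATATtccttctatgttta
miR-376b: gTGGCTATtccttctatgttta
miR-376b and miR-376c differ by 1 base, C5A, with the base of miR-376b first and positions counted from 1 at the 5′ end. How the authors' counting assigned reads between these sequences is not given in the sources used here. Both arms of 2 hairpins passed the filter and are shown because they allow the arms of 1 transcript to be compared.
miR-136-5p: aCTCCATTtgttttgatgatgga
miR-136-3p: cATCATCGtctcaaatgagtct
miR-493-5p: tTGTACATggtaggctttcatt
miR-493-3p: tGAAGGTCtactgtgtgccagg

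In the Sscrofa11.1 assembly the cluster lies in 2 pieces, the end of chromosome 7 and an unplaced scaffold, and all exact matches of the members in either piece were on the plus strand. On chromosome 7, DLK1 begins at 121565844 and MEG3 spans chr7:121656253-121660495. miR-493-5p lies at chr7:121697847-121697868 and miR-493-3p at chr7:121697888-121697909, in the annotated hairpin MIR493, and miR-493-3p has a second exact match on chromosome 2 from 120316067 to 120316088. miR-127 lies at chr7:121709688-121709709, in MIR127 and opposite an exon of RTL1, which is on the minus strand. miR-432-5p (chr7:121711143-121711163) and miR-136-5p (chr7:121711342-121711364) lie in MIR432 and MIR136, also opposite an RTL1 exon and within an intron of the noncoding gene LOC106504559. Chromosome 7 of the assembly ends at 121844099. On the scaffold, miR-411 begins at 30049, miR-323 at 32457, miR-758 at 32770, miR-376c at 45245 with a second copy at 45975, miR-376a-3p at 46380, miR-382 at 58451 and miR-369 at 69241. DIO3 follows on the same scaffold from 504081 to 506187. miR-494 and miR-376b had no exact match in the assembly. Bases 8 to 22 of miR-494 matched the scaffold from 35962 to 35976.

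Whole reads could be recovered for 2618 of 2618 values above 0 in the small RNA table, within 0.001 of a whole number. The libraries held 3537619 to 9854086 reads, 97.6% to 98.7% of them on listed miRNAs. The values of ZD8 stood apart in the total RNA libraries. The 6 luteal markers (STAR, CYP11A1, HSD3B1, SCARB1, LHCGR, PTGFR) summed to 123 FPKM (fragments scaled to gene length and library size) in ZD8 and to 9167 to 12191 in the other 5 ovaries. All 6 were lowest in ZD8, and none was at 0. The 6 oocyte markers summed to 123 FPKM in ZD8, 22.5 in ZD12 and 6.25 to 11.9 in the remaining 4, and the 2 theca markers to 415, 74.4 and 9.31 to 18.9. The endothelial markers summed to 128 FPKM in ZD8 and 274 to 400 elsewhere. Of the 6 endothelial markers, VWF, KDR and TEK were lowest in ZD8 and ZD12. The 6 stromal markers summed to 3373 to 9586 FPKM. The 6 granulosa markers summed to 130 to 772 FPKM, with INHA at 66.4 FPKM in ZD8 and 162 to 726 FPKM elsewhere. FSHR (10.8 and 4.5 FPKM), AMH (12 and 7.21 FPKM) and FOXL2 (37.8 and 30.6 FPKM) were highest in ZD8 and ZD12, and CYP19A1 was at 0 in 5 of 6 ovaries and 0.0137 FPKM in ZD5. The fold changes, the median over pairs and the correlations with miR-127 are also given without ZD8, and some without ZD12.

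The members together were a small part of the ovary's miRNA. Their summed level was 811, 976 and 599 RPM in ZD2, ZD3 and ZD12 (SLS) and 869, 1038 and 502 RPM in ZD5, ZD7 and ZD8 (LLS). As a percent of the reads on all listed miRNAs this was 0.0831, 0.0997 and 0.0609 in SLS and 0.0887, 0.105 and 0.0509 in LLS. The groups overlapped, and the lowest value in each group was that of ZD12 and of ZD8. These sums rest on 3453 to 7030 reads. miR-127 alone supplied 72.6% to 78.7% of the sum in every ovary.

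miR-127 was the most abundant member, at 589, 733 and 471 RPM in the SLS ovaries and 658, 795 and 384 RPM in the LLS ovaries, and it ranked 79 of the 457 miRNAs by mean level. Its lowest ovary was 8.27 times the highest value of any other member. The next level was held by miR-136-3p, with 42.8, 39.3 and 21.1 RPM in SLS and 40.4, 43.4 and 33.3 RPM in LLS, where only ZD12 stood low. miR-411 was measured at 37.1, 34.8 and 16.7 RPM in SLS and 23.2, 46.5 and 9.32 RPM in LLS, highest in ZD7 and lowest in ZD8. miR-758 had the same order over the ovaries, with 41.3, 32.2 and 15.5 RPM in SLS and 28.7, 43.7 and 5.75 RPM in LLS. It was the most variable member, with an SD of 1.04 over the 6 ovaries on the log2(RPM + 1) scale.

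The middle of the range was held by 6 members between about 9 and 17 RPM on average. miR-382 was at 16.3, 25.2 and 12.2 RPM in SLS and 19, 20.4 and 11 RPM in LLS, and miR-323 at 9.42, 14.7 and 10.2 RPM in SLS and 14.4, 16.1 and 5.98 RPM in LLS. ZD8 was the lowest ovary for both. miR-369 took another course, with 8.39, 22.6 and 19.1 RPM in SLS and 21.7, 13 and 10.7 RPM in LLS, so that ZD2 was lowest and ZD12 among the high ovaries. miR-136-5p was at 18.7, 22.3 and 9.95 RPM in SLS and 14.8, 14.2 and 16.8 RPM in LLS, low only in ZD12. miR-493-3p was at 24.3, 14.1 and 5.48 RPM in SLS and 15.4, 20.8 and 6.22 RPM in LLS, low in both ZD12 and ZD8. Its other arm, miR-493-5p, was at 6.33, 17 and 4.97 RPM in SLS and 12.2, 8.86 and 5.52 RPM in LLS, low in these ovaries and in ZD2.

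The 4 lowest of the tested members rested on few reads. miR-432-5p was at 4.96, 7.91 and 5.07 RPM in SLS and 9.24, 7.08 and 5.98 RPM in LLS, a narrow range. miR-376a-3p, named for its course after its values were seen, was at 3.94, 4.52 and 4.77 RPM in SLS and 6.33, 2.21 and 5.29 RPM in LLS, with its lowest value in ZD7, where miR-127 was highest. miR-494 was at 3.94, 3.67 and 0.101 RPM in SLS and 0.649, 3.1 and 0.46 RPM in LLS. Its value in ZD12 was a single read, with an exact (Clopper-Pearson) 95% interval of 0.00257 to 0.565 RPM, and that in ZD2 was 23 reads, 2.5 to 5.91 RPM, intervals that cover counting error only. miR-376c was at 1.54, 2.54 and 1.01 RPM in SLS and 1.46, 1.18 and 0.921 RPM in LLS, on 8 to 10 reads in each ovary. With reads so nearly equal, its RPM values differed between ovaries mainly through the library totals.

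The other 4 members did not pass the filter. miR-432-3p and miR-376a-5p, the weaker arms of their hairpins, reached at most 1.03 and 1.37 RPM, and miR-487b reached 1.14 RPM. miR-376b stayed between 0 and 0.59 RPM, at most 4 reads. A count of 0 for miR-376b in ZD3 allows up to 0.848 RPM (3 reads), and that for miR-432-3p in ZD8 up to 0.345 RPM. Over the 14 tested members in order of mean level, 12 of 13 neighbours had overlapping ranges over the ovaries, and only miR-127 stood clear of the next.

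**Figure D1:**
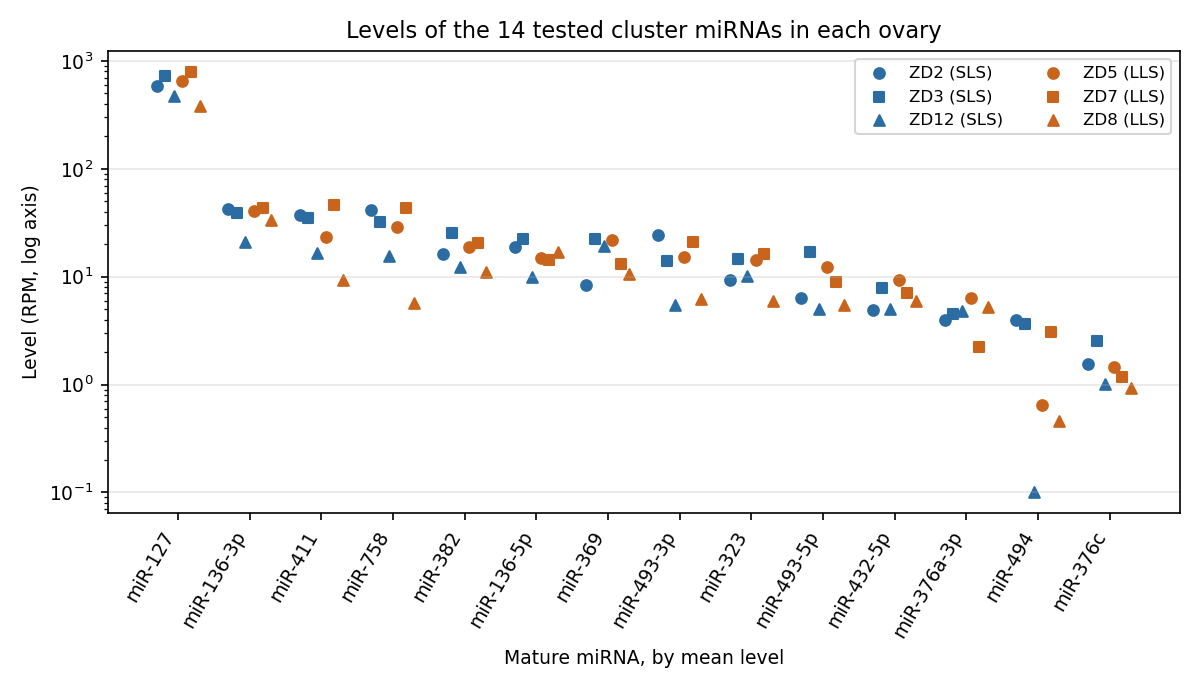
Level in RPM (log axis) of each of the 14 tested cluster miRNAs, ordered by mean level, with 1 point per ovary (blue SLS, orange LLS). miR-127 lies at 384 to 795 RPM, above all other members, and for every member the points of the 2 groups overlap.

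No member was called different between LLS and SLS. The fit was limma with a variance trend on log2(RPM + 1) over all 353 tested miRNAs, and a miRNA was called where its p, adjusted by Benjamini-Hochberg over the table, was under 0.05 and its log2 fold change was beyond 1 in either direction. By this rule limma called 0 of the 14 members and 0 of 353 miRNAs (0%), with a smallest adjusted p of 0.997. Before adjustment, 0 of the 353 were under 0.05. On the recovered reads, edgeR's exact test, edgeR's quasi-likelihood test and DESeq2 also called 0 miRNAs, with 3, 4 and 7 of 353 and 0 members under 0.05 before adjustment. For 14 of 14 members the ranges of the groups overlapped, and 10 of the 353 miRNAs (2.83%) had groups that did not overlap.

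The members' log2 fold changes (LLS minus SLS) ran from -0.46 to 0.28, with 5 above 0 and 9 below. Their median was -0.05, beside -0.01 over all 353 miRNAs, which ran from -2.20 to 2.29. miR-758 had a fold change of -0.46 ± 0.76 (SE, n = 3 ovaries per group) and miR-411 of -0.34 ± 0.65 on the log2 scale. Without ZD8 both changed sign, to 0.35 and 0.23. miR-494 was at -0.45 ± 0.66, miR-376c at -0.27 ± 0.34 and miR-432-5p at 0.28 ± 0.41, and these 3 kept their sign in each of the alternative fits in which they were tested. miR-494 failed the filter without ZD2, ZD3 or ZD7, the 3 ovaries where it was highest. Its kept sign therefore depends in part on the filter. miR-494 was at -1.16 without ZD12, where it rests on a single read, and was then the only member under 0.05 before adjustment (adjusted p = 0.994 in limma). Of all miRNAs tested in that fit, 9 of 348 were under 0.05 before adjustment. miR-494 was at -0.91 in edgeR's exact test and -0.18 without ZD8. miR-127 was at -0.01 ± 0.41, with means of 598 ± 131 RPM in SLS and 613 ± 209 RPM in LLS (SD, n = 3). Standard errors of 0.34 to 0.76 on the log2 scale show how wide a difference these 3 ovaries per group leave undetermined.

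**Figure D2:**
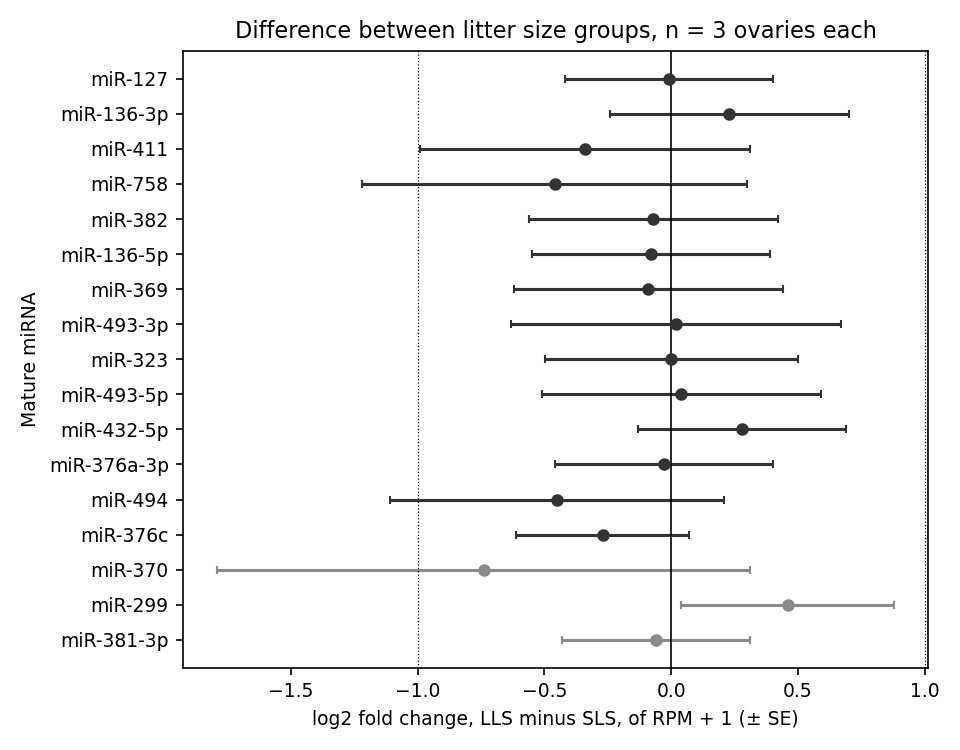
The log2 fold change of RPM + 1, LLS minus SLS, with its standard error from limma (n = 3 ovaries per group), for the 14 tested members (black) and 3 other miRNAs of the cluster (grey). Dotted lines mark an absolute log2 fold change of 1. The members lie between -0.46 and 0.28, and no call was made.

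Other miRNAs known from the cluster, listed by 24 further numbers, were found for 3 numbers and gave 4 rows, of which 3 passed the filter. Of these, 0 were called and 1 of 3 was higher in LLS. miR-381-3p was far more abundant than any member, at 4001, 3423 and 2276 RPM in SLS and 2833, 3487 and 2807 RPM in LLS. miR-370 was at 242, 152 and 66.6 RPM in SLS and, in LLS, at 128 RPM in ZD5 and 12.9 RPM in ZD8 with its highest value in ZD7. ZD8 was lowest and ZD12 next, and the fold change was -0.74 ± 1.05 on the log2 scale. miR-299 was at 10.6, 8.48 and 9.23 RPM in SLS and 17, 10.3 and 13.4 RPM in LLS, with 0.46 ± 0.42. Its lowest LLS value was below its highest SLS value.

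Most members were low in the same 2 ovaries, ZD12 of the SLS group and ZD8 of the LLS group. Their small RNA libraries also held the most reads (9854086 in ZD12 and 8688519 in ZD8), and that of ZD3 the fewest (3537619). The part of library size in these values was not tested. Each member's log2(RPM + 1) was centred on its own mean over the 6 ovaries. The mean of the 14 members was then 0.14, 0.44 and -0.45 in ZD2, ZD3 and ZD12 and 0.18, 0.26 and -0.57 in ZD5, ZD7 and ZD8. In ZD3, 14 of 14 members were above their own mean, while in ZD12 and in ZD8 2 of 14 were. Of all tested miRNAs, 71.1% were above their own mean in ZD3, 45% in ZD12 and 31.4% in ZD8. The mean of all 353 tested miRNAs was -0.06, 0.19 and -0.09 in SLS and 0.28, 0.09 and -0.40 in LLS, low in ZD8 as well and near 0 in ZD12. With TMM scaling the mean of the members was 0.21, 0.20 and -0.38 in SLS and -0.08, 0.26 and -0.21 in LLS, so that ZD12 was lowest and ZD8 next. In the total RNA libraries, ZD8 and ZD12 also held the 2 highest values of 6 of 6 oocyte markers, 2 of 2 theca markers and 3 of 6 granulosa markers, and the 2 lowest of 3 of 6 endothelial markers and 2 of 3 red cell markers. Of 7 pericyte and smooth muscle markers, MYH11 was highest and RGS5 lowest in these 2 ovaries. All 5 immune markers were highest and all 3 red cell markers lowest in ZD8. In bulk tissue, fewer cells of a type and less RNA per cell cannot be told apart, and the part of tissue composition in these values was not tested.

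**Figure D3:**
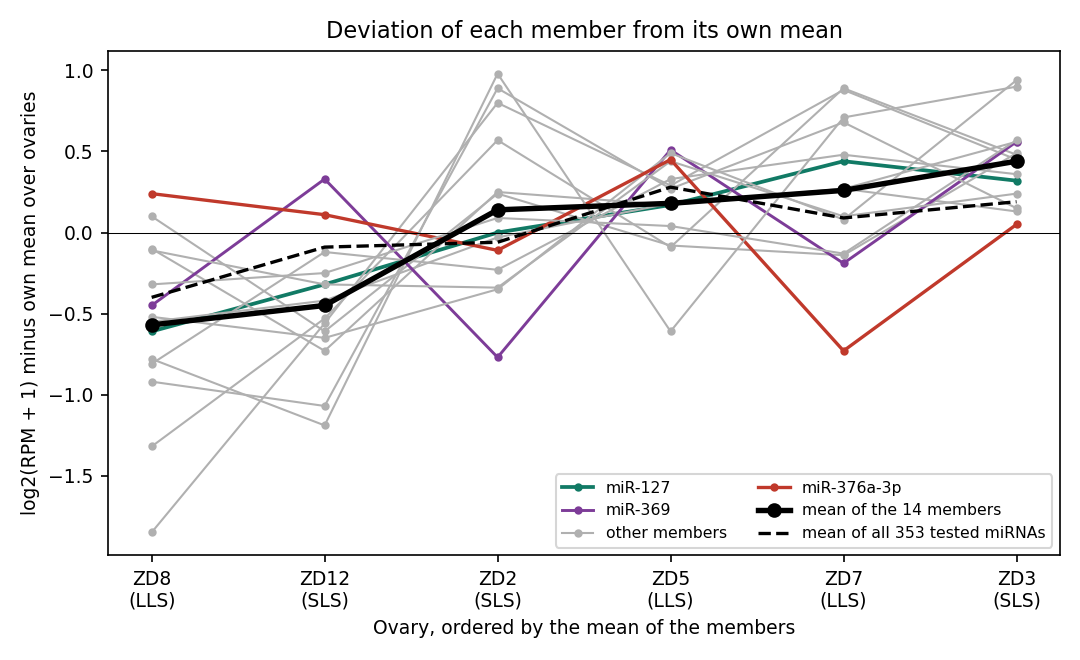
Deviation of log2(RPM + 1) from each member's own mean over the 6 ovaries (vertical axis) in each ovary (horizontal axis, ordered by the mean of the members). Thin lines are single members, the thick line their mean and the dashed line the mean of all 353 tested miRNAs. The members' mean is lowest in ZD8 (-0.57) and ZD12 (-0.45), the reverse of their order under TMM (-0.21 and -0.38), and miR-376a-3p and miR-369 leave the common order.

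Over pairs, the median Pearson's r of 2 members over the 6 ovaries was 0.57 (91 pairs). It was 0.28 for pairs of a member and another miRNA and 0.17 for all 62128 pairs of tested miRNAs. The correlation was above 0 for 79 of 91 pairs of members (86.8%) and for 57.8% of all pairs. It was above 0.8 for 17 of 91 pairs (18.7%) and for 12% of all pairs. These figures are descriptions, since the pairs share members, ovaries and the scaling of each library. With Spearman's rho the medians were 0.54 and 0.14, with group means removed 0.58 and 0.21, and with 1 miRNA per hairpin 0.57 and 0.17.

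The size of this gap depended on how the libraries were scaled. When the libraries were scaled by TMM (trimmed mean of M values, which sets library scale from the bulk of the miRNAs), the median of the members was 0.23 and that of all pairs -0.00, and after quantile normalization they were 0.14 and -0.00. The share of pairs with r above 0 was then 69.2% of the members' pairs and 49.9% of all pairs under TMM, and 57.1% and 49.8% after quantile normalization. For r above 0.8 the members' share was below that of all pairs, with 8.79% and 9.86% under TMM, 6.59% and 8.27% after quantile normalization and 7.69% and 13.3% with library medians removed. The removal of library medians was added after the data were seen. It gave medians of 0.39 for the members and 0.19 for all pairs, with 79.1% and 59.2% of pairs above 0. Without ZD8 the members' median was 0.54, beside 0.12 for all pairs, and without ZD12 0.51, beside 0.20, so neither ovary alone carried it. Without both it was 0.06 over the remaining 4 ovaries, beside 0.09 for all pairs. This removal was chosen after the values were seen, and the 2 ovaries are those with the lowest sums of the members, so the value is given as a description.

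**Figure D4:**
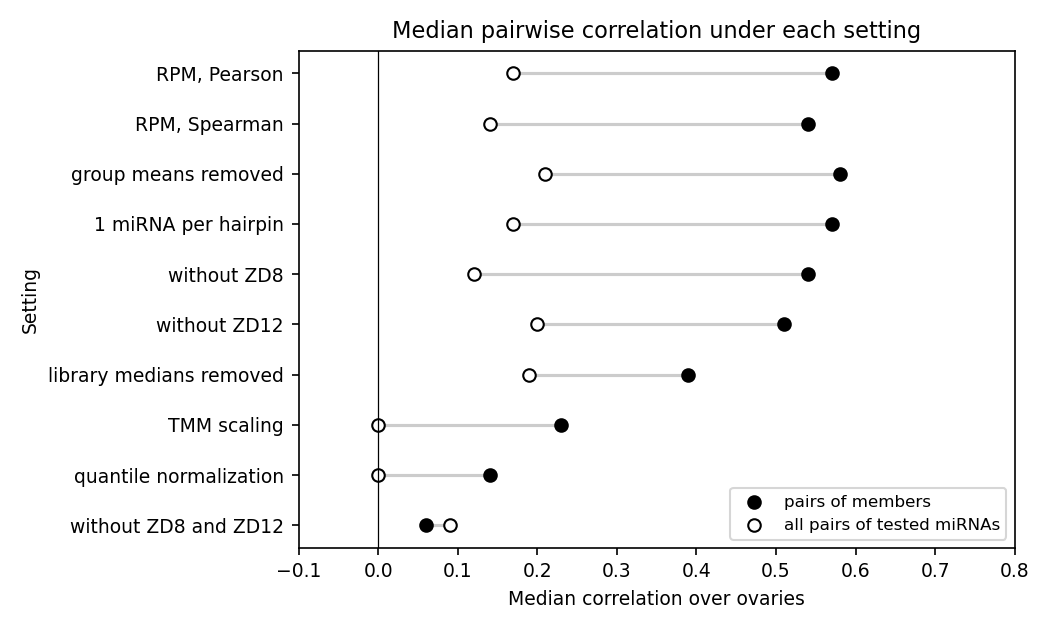
Median correlation over ovaries (horizontal axis) between pairs of cluster members (filled) and between all pairs of tested miRNAs (open) under each setting (vertical axis). The members' median falls from 0.57 with RPM values to 0.23 under TMM, 0.14 under quantile normalization and 0.06 without ZD8 and ZD12.

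Single members differed in how far they shared the order. miR-382, miR-127 and miR-494 had the highest median r with the other members, at 0.73, 0.70 and 0.70, and their median r with the miRNAs outside the members was 0.46, 0.49 and 0.16. The closest pair was miR-758 and miR-411 (r = 0.97 over 6 ovaries, and 0.95 both under TMM and without ZD8), which share the 3′ bases shown above and both lie on the scaffold. With RPM values and Pearson's r, all 12 pairs with a negative r held miR-376a-3p (8 pairs) or miR-369 (4 pairs). miR-376a-3p had a median r of -0.32 with the other members, and its lowest r was -0.66, with miR-411. By place, the median r was 0.57 among the 15 pairs on chromosome 7, 0.54 among the 21 pairs on the scaffold and 0.52 among the 42 pairs between them. Under TMM, 63 of 91 pairs were above 0. Pairs without miR-376a-3p and miR-369 were then also negative, such as miR-323 with miR-136-5p (-0.48) and miR-432-5p with miR-758 (-0.43).

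Each tested miRNA was also compared with miR-127 by an exact two-sided permutation test over all pairings of the 6 ovaries. r was above 0.8 for 4 of the 13 other members, and for 85 of all 352 miRNAs (24.1%). These members were miR-382 (r = 0.94, exact p = 0.00556), miR-323 (r = 0.94, exact p = 0.00694), miR-411 (r = 0.92, exact p = 0.0111) and miR-758 (r = 0.91, exact p = 0.0153). After Benjamini-Hochberg adjustment over 352 miRNAs none passed: the smallest adjusted exact p was 0.122, and 0 of 352 (0%) were called. By Spearman's rho the smallest adjusted exact p was 0.267. Before adjustment, 4 of 13 members (30.8%) and 103 of 352 miRNAs (29.3%) were under an exact p of 0.05, so that the members' share was close to that of the table. On the log2(RPM + 1) scale, ZD8 and ZD12 were the 2 ovaries farthest from the median of miR-127. Without them, r was 0.90 for miR-323, 0.73 for miR-382, 0.44 for miR-411 and 0.12 for miR-758. Then 1 of 13 members (7.69%) was above 0.8, beside 6.53% of all miRNAs. Under TMM, 2 of 13 (15.4%) were above 0.8, miR-411 (r = 0.90) and miR-382 (r = 0.83), beside 9.66%. Without ZD8 alone it was 4 of 13 (30.8%), beside 41 of 352 (11.6%). These were not the same 4, since miR-136-3p (r = 0.82) took the place of miR-758 (r = 0.78). No member was above 0.8 in every one of these settings.

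The 2 arms of a hairpin come from 1 transcript, so their ratio (of RPM + 1) was examined beside their summed level. For mir-136 the log2 ratio of the 5p to the 3p arm was -1.16, -0.79 and -1.01 in SLS and -1.39, -1.55 and -0.94 in LLS, so the 3p arm was the higher in all 6 ovaries. Its SD over the ovaries was 0.29, beside an SD of 0.37 for the summed level. For mir-493 the ratio was -1.79, 0.25 and -0.12 in SLS and -0.32, -1.15 and -0.15 in LLS. Its SD was 0.76, beside 0.70 for the level, and r between the arms was 0.46 over the 6 ovaries. For mir-376a the 3p arm and for mir-432 the 5p arm was the higher in every ovary, with the other arm below the filter.

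Over all 6 ovaries, the 5 miRNAs outside the members with the most similar profile were miR-4331-5p, miR-4331-3p and miR-126-5p (each r = 0.97 with the members' mean over 6 ovaries), miR-3613 and let-7i-5p (each 0.96). miR-4331-5p was at 104, 170 and 26.7 RPM in SLS and 107, 99.2 and 35 RPM in LLS, low in the same 2 ovaries as the members. miR-4331-3p was at 156, 325 and 28.1 RPM in SLS and 159, 121 and 33.5 RPM in LLS, and its sequence has 28774 exact matches on both strands of the assembly. Of these, 7 lie within the cluster's stretch, from DLK1 to the end of chromosome 7 and on the scaffold up to the end of DIO3. The other 4 have 1 or 2 matches, all outside the stretch.

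The genes of the locus were low in the total RNA libraries. Of 7 listed genes, DLK1, MEG3, RTL1 and DIO3 were in the table, and only MEG3 passed the filter of 1 FPKM in 3 libraries. MEG3, the noncoding RNA of the maternal chromosome, was at 0.952, 0.869 and 1.16 FPKM in SLS and 1.02, 0.369 and 2.67 FPKM in LLS, with the extremes of both directions in LLS. DLK1, a membrane ligand related to Notch ligands, was at 0.114 to 0.288 FPKM. RTL1, the protein gene opposite miR-127, was listed at 0 in all 6 ovaries. DIO3, the deiodinase that inactivates thyroid hormone, was at 0.0857, 0.202 and 1.59 FPKM in SLS and 0.173, 0.203 and 6.31 FPKM in LLS, high in the 2 ovaries in which the members were low. The noncoding gene LOC106508637, the annotated gene before DIO3 on the scaffold and singled out after its values were seen, was also highest in ZD12 (0.372 FPKM) and ZD8 (1.59 FPKM), beside 0 to 0.076 FPKM in the others. So was LOC110258332 (0.219 and 0.635 FPKM), while the other LOC genes in or near the stretch were not. Outside the stretch, the neighbours SLC25A29 (5.5 and 9.41 FPKM, others 1.62 to 3.05) and YY1 (16.6 and 21.9 FPKM, others 12 to 15.4) were highest there too. The other neighbours in the table were not. How many of all genes share this order was not counted.

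In limma on log2(FPKM + 1), 0 of 12260 genes (0%) were called, with a smallest adjusted p of 0.86, and 216 had an unadjusted p under 0.05. MEG3 had a log2 fold change of 0.12 ± 0.39 (adjusted p = 0.999 in limma), with limma's array weights it was -0.26, and without ZD7 it was 0.45. Of 8 listed neighbours, 6 passed the filter (WDR25, WARS, YY1, SLC25A29, PPP2R5C and DYNC1H1), and their fold changes lay between -0.34 (WARS) and 0.14 (PPP2R5C), all with an adjusted p of 0.999 in limma. With array weights 13 genes of the whole table were called, and MEG3 and the 6 neighbours were not among them. Without ZD8, 20 genes were called, and the 6 neighbours were not among them. MEG3 did not pass the filter in that fit.

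MEG3 and DIO3 were set against miR-127 over the 6 ovaries after their values were seen, so these relations are descriptions and no p is given. For MEG3, Pearson's r was -0.91 and Spearman's rho -0.94. r was -0.79 without ZD8, -0.76 with TMM scaling of miR-127 and -0.78 over the 4 ovaries left without ZD8 and ZD12. For DIO3, which did not pass the filter, r was -0.89 and rho -0.43. r was -0.77 without ZD8 and -0.55 with TMM scaling. Without ZD8 and ZD12, the 2 ovaries lowest in miR-127 and highest in DIO3, it was 0.91 over 4 ovaries with 0.0857 to 0.203 FPKM of DIO3. Both genes were measured in libraries in which the markers above also set ZD8 apart, and the part of tissue composition was not tested. The share of all tested genes with such a correlation with miR-127 was not computed.

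**Figure D5:**
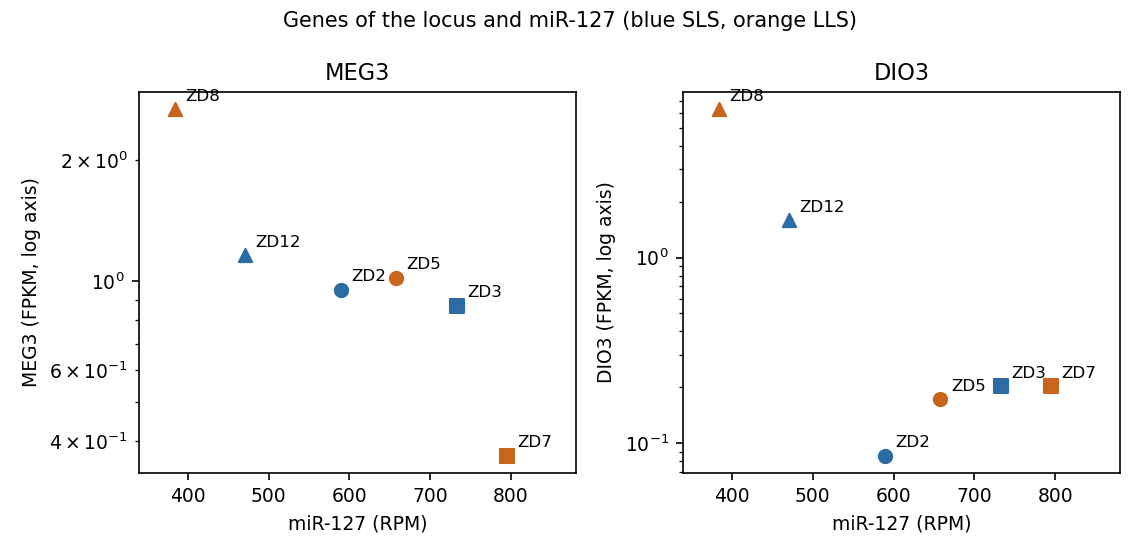
Level of MEG3 (left) and DIO3 (right) in FPKM (log axis) against miR-127 in RPM, with 1 point per ovary (circles, squares and triangles; blue SLS, orange LLS). ZD8 has the highest values of both genes (2.67 and 6.31 FPKM) and the lowest miR-127 (384 RPM), and ZD12 is next in both panels.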

How the data were processed

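For the small RNA libraries (Ion Total RNA-Seq kit, reads aligned with BWA per the labels) the authors' deposited values are RPM, reads divided by the library total, although they are named TPM. The miRNA annotation and the counting program are not given in the sources used here. For the total RNA libraries the authors trimmed reads with NGSQCToolkit, mapped them to Sscrofa11.1 with HISAT2 and deposited FPKM. The reads behind the FPKM values were not recovered here. All 12 value columns were used, 0 were left out, and columns were matched to samples by ovary name. Each ovary has a sample titled with its name and another with rep added. The columns give the name alone and do not tell these samples apart, but ovary and group are the same for both.

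The members and lists were chosen with earlier results of these data known. Tests used R 4.3.3 with limma 3.58.1 on log2(value + 1), after a filter of at least 1 in 3 libraries. The alternatives were edgeR 4.0.16 and DESeq2 1.42.0 on the recovered miRNA reads, other pseudocounts, filters and scalings, array weights, and leaving out each ovary. Correlations used exact permutation (Python 3.11.15). Scripts were tested on simulated data. Members named with values in every ovary were the 10 most abundant, those whose groups do not overlap (none) and the 5 with the smallest unadjusted p. Mature sequences were matched exactly to the Sscrofa11.1 reference on both strands. Since no more than 3 ovaries stand in a group, an exact test of 1 miRNA between groups cannot go below p = 0.1, and none was used. At these depths 3 reads are 0.304 to 0.848 RPM, so low members have large counting error.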

Additional observations from a re-analysis of the deposited data

How the results depend on the processing

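In each of 16 alternatives to the fit of the miRNAs, 0 miRNAs were called, and 0 to 11 had p under 0.05 before adjustment. The smallest adjusted p was 0.0691, in limma without ZD8. The members' median log2 fold change stayed between -0.29 and 0.26. Of 216 recomputed fold changes of single members, 46 changed sign and 0 were called. The values that changed sign were, under TMM, 0.03 for miR-376a-3p, 0.07 for miR-127 and 0.00085 for miR-382. Under quantile normalization they were 0.08 for miR-369, 0.01 for miR-376a-3p, 0.13 for miR-136-5p and 0.14 for miR-127. With array weights they were -0.17 for miR-493-5p, 0.02 for miR-376a-3p and 0.04 for miR-127, and -0.26 for MEG3. Both edgeR tests gave -0.18 for miR-493-3p, -0.11 for miR-493-5p and 0.04 for miR-376a-3p, and DESeq2 gave -0.10, -0.06 and 0.10, with 0.03 for miR-127. A pseudocount of 0.5 RPM gave -0.004 for miR-323 and one of 5 RPM gave 0.01 for miR-376a-3p.

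In fits that each lacked 1 ovary, the log2 fold change ran from -0.51 to 0.48 for miR-493-3p, -0.24 to 0.41 for miR-323, -0.28 to 0.52 for miR-493-5p, -0.49 to 0.17 for miR-369 and -0.26 to 0.33 for miR-376a-3p. It ran from -1.01 to 0.35 for miR-758, -0.40 to 0.14 for miR-136-5p, -0.87 to 0.23 for miR-411, -0.08 to 0.41 for miR-136-3p, -0.22 to 0.30 for miR-127 and -0.30 to 0.19 for miR-382. No sign changed for miR-376c (-0.46 to -0.06), miR-432-5p (0.13 to 0.47) and miR-494 (-1.16 to -0.18, past the filter in 3 of the 6 fits). The fits without ZD2, ZD3 or ZD7, where miR-494 was highest, could not test it. The median of the other 3 cluster miRNAs ran from -0.29 to 0.46. Here a group with 2 ovaries shares its estimate of spread with the rest.

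The median r of the members was 0.62 with a filter of a mean of at least 10 RPM, 0.23 under TMM, 0.14 under quantile normalization, and 0.51 to 0.62 with 1 ovary left out. Chosen after the data were seen, centring each library on its median gave 0.39 (0.19 for all pairs), and leaving out ZD8 and ZD12 gave 0.06 (0.09 for all pairs). With miR-127, r above 0.8 was found for 2 of 13 members under TMM (9.66% of all miRNAs) and 1 without the 2 farthest ovaries (6.53%). It was found for 4 with RPM values (24.1%), with a pseudocount of 5 (23%) and without ZD8 (11.6%). Without ZD8, miR-136-3p took the place of miR-758 among the 4. Without miR-127 the members' mean share of miRNA reads was 0.0198%. For DIO3, r with miR-127 was 0.91 without ZD8 and ZD12. MEG3 did not pass the filter without ZD12, ZD5 or ZD8, and without ZD7 it was at 0.45. The cause of these changes was not tested. No paired analysis was possible because the ovaries of the groups came from different sows.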
